A study of Mus musculus with 143 samples.

Results

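The 10 genes described here write, read and erase N6-methyladenosine (m6A), the most common internal mark on messenger RNA, and were followed through mouse oocytes that lack 1 or both of the nuclear RNA exosome's ribonucleases, DIS3 and EXOSC10. They were chosen by function, not by how they moved: Mettl3, Mettl14 and Wtap as writers, Ythdc1, Ythdf2, Ythdf3, Ythdc2 and Igf2bp2 as readers, and Alkbh5 and Fto as erasers. They are 10 of the 55573 gene IDs counted in the poly(A) libraries and of the 55487 counted in the RiboMinus libraries, and all 10 passed the filter on low counts in every comparison. The study concerns female fertility, RNA polymerase II and pervasive transcription in oocytes depleted of exosome ribonucleases.

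Each RNA library came from 1 oocyte. Poly(A) RNA was sequenced at 3 stages. Germinal vesicle (GV) oocytes are arrested in the first meiotic prophase (8 control and 15 Dis3 cKO libraries). GV3h oocytes were cultured for 3 h (8 control and 16 Dis3 cKO). MII eggs, in the second meiotic metaphase, were taken from the oviducts of superovulated mice (8 control and 16 Dis3 cKO). RiboMinus libraries, primed with random hexamers and so not selected for a poly(A) tail, came from adult GV oocytes (8 control, 8 Dis3 cKO) and from oocytes labelled p20, taken here as postnatal day 20 (control, dcKO and the Dis3 and Exosc10 knockouts, 8 each). CUT&Tag peak lists, made from pooled oocytes with 3 lists a group, covered H3K27me3 and RNA polymerase II (Pol II). The mutant mice were made with CRISPR/Cas9 according to the labels. The recombinase that makes the knockouts conditional, its promoter and the strain are not given in the labels. Nor is it said whether the oocytes of a group came from separate animals, so p-values measure only the spread between these oocytes. An external RNA mix (ERCC) was added to each lysate of the poly(A) series, and ERCC counts exist for every RNA library.

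In the m6A pathway, METTL3 is the catalytic subunit of the nuclear methyltransferase, METTL14 is the partner that helps it bind RNA, and WTAP holds this pair with the rest of the complex. YTH domain proteins read the mark: YTHDC1 in the nucleus, YTHDF2 and YTHDF3 in the cytoplasm, and YTHDC2 as a helicase that works with MEIOC in meiotic germ cells. YTHDF2 speeds the decay of marked mRNA and is needed in the mouse oocyte for the maternal transcriptome, whereas IGF2BP2 is credited with stabilising its targets. ALKBH5 and FTO are the demethylases that remove the mark, and METTL3 and YTHDC1 are known to be needed for oocyte growth or maturation.

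The 250 bases before the start of 2 members (RefSeq, GRCm38.p6) are printed because the results return to them: Alkbh5, the member that was lower in most knockout comparisons, at chr11:60537433-60537682 on the plus strand, and Igf2bp2, the member with H3K27me3 peaks at its start in control oocytes, at chr16:22163300-22163549 on the minus strand. Capitals mark the GC box, searched as GGGCGG on both strands.
Alkbh5: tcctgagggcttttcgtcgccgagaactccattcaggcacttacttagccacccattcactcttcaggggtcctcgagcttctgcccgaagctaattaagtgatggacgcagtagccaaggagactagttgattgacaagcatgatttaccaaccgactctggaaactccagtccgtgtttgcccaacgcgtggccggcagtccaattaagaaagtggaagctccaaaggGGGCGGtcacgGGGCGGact
Igf2bp2: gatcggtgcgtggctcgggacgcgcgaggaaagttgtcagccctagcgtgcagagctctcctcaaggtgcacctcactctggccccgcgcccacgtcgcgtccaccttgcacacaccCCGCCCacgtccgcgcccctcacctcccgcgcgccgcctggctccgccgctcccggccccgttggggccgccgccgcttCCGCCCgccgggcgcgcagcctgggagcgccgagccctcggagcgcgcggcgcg
Each window holds 2 GC boxes, a motif found in 32.7% of the 32851 promoter windows of this length. The Igf2bp2 window has a GC content of 77.2%, against 54% for Alkbh5 and a median of 52.4% over all windows. The letters CCAAT, present in 33.8% of windows, occur 1 time in the Alkbh5 window and not in that of Igf2bp2, and neither window holds TATAAA (12.4% of windows) or CCGGAAG (6.91%). These matches describe the letters only.

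Gene positions are from RefSeq on GRCm38.p6, the assembly that mm10 represents. Among the writers, Mettl3 lies at chr14:52294841-52308741 and overlaps Tox4, Mettl14 at chr3:123368295-123385990 and Wtap at chr17:12966799-12992543. Among the readers, Ythdc1 lies at chr5:86803980-86836659, Ythdf2 at chr4:132184916-132212256, Ythdf3 at chr3:16183148-16217037, Ythdc2 at chr18:44827730-44889720 and Igf2bp2 at chr16:22059009-22163299. Of the erasers, Alkbh5 lies at chr11:60537683-60558512 and Fto at chr8:91313367-91668433, where it overlaps 4831440D22Rik. Whether the authors' counting used strand is not given in the sources used here, so reads of Mettl3 and Fto cannot be separated from those of the genes they overlap. Promoter sequences matched 7 of the 10 genes, and those of Mettl14, Ythdf3 and Ythdc2 had no entry.

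Gene counts summed to between 4843964 and 15412200 per poly(A) library (median 9510351) and to between 8492102 and 35429028 per RiboMinus library (median 18164035). Levels are CPM, counts per 1e+06 counts after TMM scaling, on 1 scale per assay. They are compared within an assay and within a gene only, since gene lengths were not used. The targeted genes followed the labels: Dis3 fell by 2.18 to 3.63 on the log2 scale in the poly(A) knockouts. Exosc10 was also lower in GV3h Dis3 cKO oocytes (-0.53 ± 0.15, adjusted p = 0.00259; ERCC-scaled -0.57, 0.051). In the RiboMinus libraries labelled Dis3 cKO or dcKO, Dis3 fell by 3.13 in adults, fell by 2.74 in the p20 Dis3 cKO and fell by 2.25 in the dcKO. Exosc10 fell by 5.22 in the Exosc10 cKO and 4.01 in the dcKO. All 10 oocyte markers were present in every group, with summed levels of 8129 to 30031 CPM, while Ptx3, a cumulus marker, was at 0 in all but 1 group. Summed levels of the 10 granulosa and cumulus markers had lower medians in the knockouts of the poly(A) series: 95.9 CPM (88.0 to 134) in control against 71.2 (54.0 to 221) in Dis3 cKO at GV, 79.7 (63.8 to 96.6) against 53.8 (33.0 to 68.0) at GV3h, and 96.8 (81.7 to 149) against 65.3 (48.7 to 79.5) at MII. Of these markers, the mean of Cyp19a1 went from 36.2 to 14.2 CPM at GV, while those of Nr5a2 (44.2 to 48.4) and Hsd3b1 (6.96 to 19.3) were higher, the latter with 1 knockout library at 146 CPM and a mean of 10.2 without it. In RiboMinus libraries the knockout medians of this sum were the higher ones, 107 CPM against 94.95 in adults and 128 to 140 against 114 at p20. The sum of the 5 theca and stroma markers had low medians, which were higher in the poly(A) knockouts. They were 1.23 CPM (0 to 3.63) in control against 5.66 (0.42 to 18.1) at GV, 1.74 (0.23 to 3.07) against 6.69 (1.70 to 10.8) at GV3h and 1.66 (0.65 to 43.2) against 6.56 (3.53 to 14.8) at MII. The highest sum, 43.2 CPM, was in an MII control egg. Among them Star had means of 1.15 against 5.53 CPM at GV and 1.15 against 6.18 at GV3h. The blood list summed to at most 7.43 CPM. The part of these markers in the results was not tested. The p20 dcKO libraries were shallower than the controls, at 8492102 to 14246463 against 16043788 to 19702270 gene counts. GV3h Dis3 cKO oocytes 15 and 16 resembled each other more than any other pair of that group (chi-square per degree of freedom 2.67, next 8.22). Whether they are 1 oocyte is not known, and they count as 2 in the values of n here. GV control oocyte 1, GV Dis3 cKO oocytes 6 and 8 and MII Dis3 cKO oocyte 15 stood apart from their groups.

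The first comparison asks which members differed between knockout and control at each stage (edgeR quasi-likelihood test, Benjamini-Hochberg adjustment over all genes tested, threshold 0.05, 2-sided). In the poly(A) series, 1 of the 10 members was called at GV, where 21.9% of all 17389 genes were called, 5 at GV3h against 38.6%, and 3 at MII against 42.1%. Alkbh5 was lower at all 3 stages, Ythdf2 and Fto were higher at GV3h and MII, and at GV3h Ythdc2 was also higher and Igf2bp2 lower. In adult GV RiboMinus libraries 3 of 10 were called against 28.1% of 15334 genes: Alkbh5 was lower, and Ythdc1 and Ythdc2 were higher. At p20, 1 of 10 was called in the Dis3 cKO (Wtap, higher, against 7.37% of 15882 genes) and 1 in the Exosc10 cKO (Ythdc1, higher, against 7.45%). The dcKO had 6 of 10 called against 53.7%. Mettl3, Mettl14, Ythdf3, Igf2bp2 and Alkbh5 were lower, 5 of 10 against 27.1% of all genes, and Fto was higher, 1 of 10 against 26.6%. The 10 members as a list had median log2 differences of -0.05, -0.03 and -0.05 at GV, GV3h and MII against 0.04, 0.07 and 0.16 for all genes. In the RiboMinus comparisons the member median was 0.07 in adults (all genes 0.03), 0.11 in the p20 Dis3 cKO (0.00), 0.07 in the Exosc10 cKO (0.01) and -0.22 in the dcKO (-0.01).

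**Figure D1:**
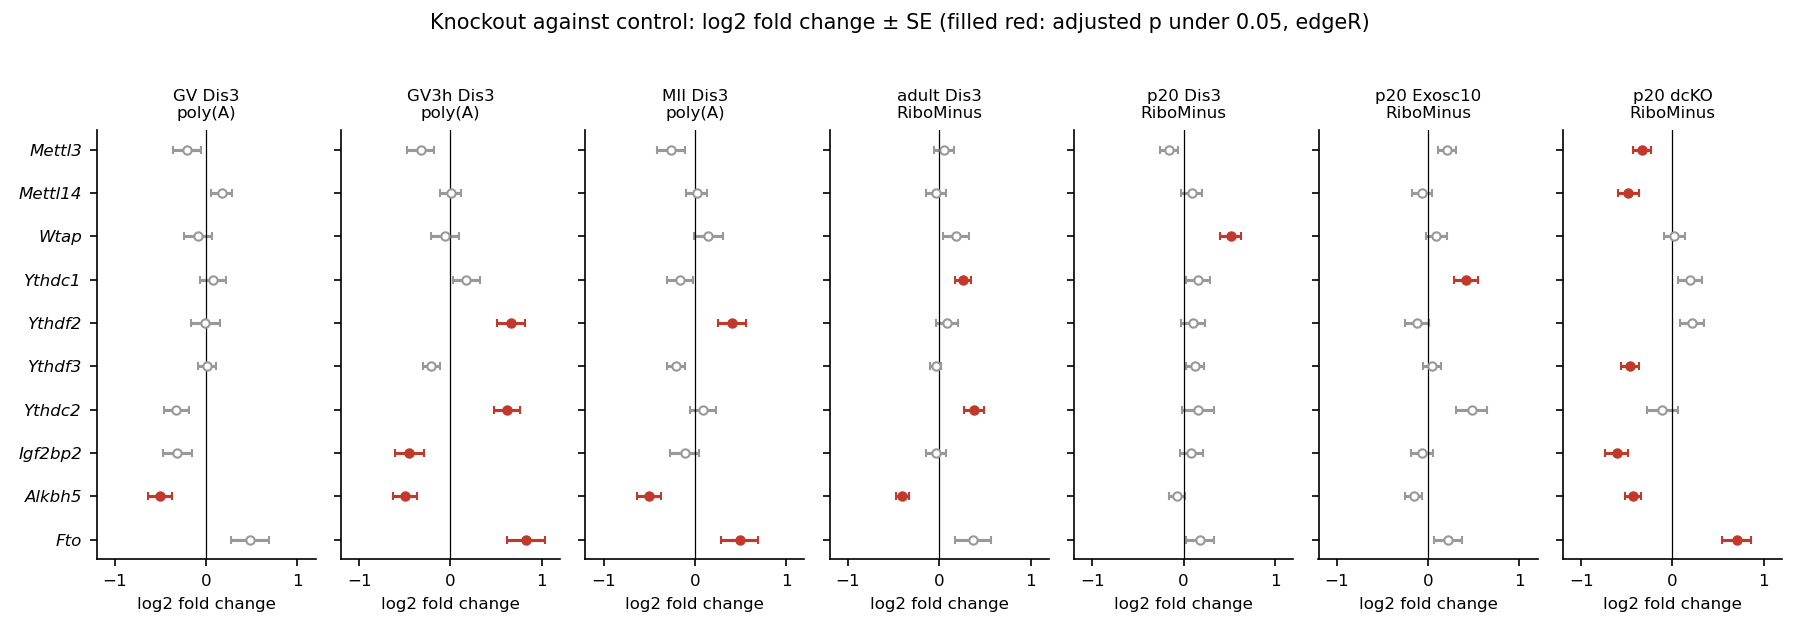
Log2 difference between knockout and control for each of the 10 members (rows) in the 7 knockout comparisons, with the standard error as a bar and filled points for an adjusted p under 0.05. Alkbh5 sits between -0.50 and -0.40 in the poly(A) and adult comparisons and at -0.43 in the p20 dcKO, and nearest to 0 in the p20 Dis3 cKO at -0.07.

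Scaling to the ERCC counts in place of TMM moved the median of all genes, and with it each member. The all-gene median of Dis3 cKO against control became -0.23 at GV, 0.04 at GV3h, 0.52 at MII, -0.52 in adult RiboMinus libraries and -0.31 in the p20 Dis3 cKO. The largest shift was in control MII eggs against GV oocytes, at -2.12. Statements of higher and lower are therefore relative to the bulk of the transcriptome.

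Alkbh5, the eraser whose loss in mice impairs spermatogenesis, was lower in Dis3 cKO oocytes at every poly(A) stage. In control GV oocytes it ranged from 660.3 to 1049.6 CPM with a median of 919.6 (mean 895 ± 128, SD, n = 8), and in Dis3 cKO GV oocytes from 454 to 768 with a median of 654 (633 ± 96.9, n = 15). All 15 knockout oocytes lay below the control mean, although the ranges overlapped, and the log2 difference was -0.50 ± 0.13 (SE, adjusted p = 0.00263). After 3 h of culture the controls spanned 661 to 946 CPM (median 869, mean 829.2 ± 93.7, n = 8) and the knockouts 438 to 805 (median 605, mean 587 ± 106, n = 16). All 16 knockout oocytes lay below the control mean, with a log2 difference of -0.50 ± 0.13 (adjusted p = 0.00131). The MII values were 629 to 1195 CPM in control eggs (median 928, mean 925 ± 157, n = 8) and 199.997 to 906 in Dis3 cKO eggs (median 668, mean 652 ± 183, n = 16). Again 16 of 16 were below the control mean, with a log2 difference of -0.50 ± 0.13 and an adjusted p of 0.00106. The ratio to control was 0.705 to 0.707 at the 3 stages. With ERCC scaling the GV and GV3h differences were -0.77 (adjusted p = 0.0065) and -0.55 (0.046), but the MII difference was -0.05 (0.88), while all genes stood at a median of 0.52.

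RiboMinus libraries gave Alkbh5 the same direction in adults. Adult control oocytes spanned 739 to 881 CPM (median 824, mean 818 ± 51.3, n = 8) and adult Dis3 cKO oocytes 506 to 763 (median 606, mean 608 ± 80.5, n = 8). All 8 knockout oocytes were below the control mean, with a log2 difference of -0.40 ± 0.07 and an adjusted p of 0.000363, and the ERCC-scaled difference was -0.92 (adjusted p = 0.0019). The libraries carry 2 title tags per genotype, and with the 4 libraries of each tag summed to 1 sample the adult call was lost (adjusted p = 0.186, 2 against 2 samples). In that fit 0 of all genes were called. At p20 the controls spanned 711 to 970.5 CPM (median 849, mean 838 ± 89.5), the Dis3 cKO 663 to 908 (median 812, 794 ± 83.0) and the Exosc10 cKO 654 to 891 (median 729, 752 ± 85.4), n = 8 each. Neither knockout of 1 ribonuclease passed the test, with log2 differences of -0.07 ± 0.09 (adjusted p = 0.733) and -0.16 ± 0.09 (0.323). The dcKO, at 479 to 753 CPM (median 623, mean 617 ± 99.8, n = 8), lay below the control mean in 8 of 8 oocytes, with a log2 difference of -0.43 ± 0.09 (adjusted p = 0.000133; ERCC-scaled -0.47, 0.051). Tested directly, the dcKO was lower than the Dis3 cKO (log2 difference -0.36 ± 0.09, adjusted p = 0.00116) and than the Exosc10 cKO (-0.27 ± 0.09, 0.0118). With ERCC scaling neither passed, at -0.11 (adjusted p = 0.69) and -0.34 (0.18), and with libraries summed per tag the difference from the Exosc10 cKO did not pass (0.0885). The difference between the adult and the p20 effect of Dis3 loss was -0.35 ± 0.12 and did not pass (adjusted p = 0.0583).

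**Figure D2:**
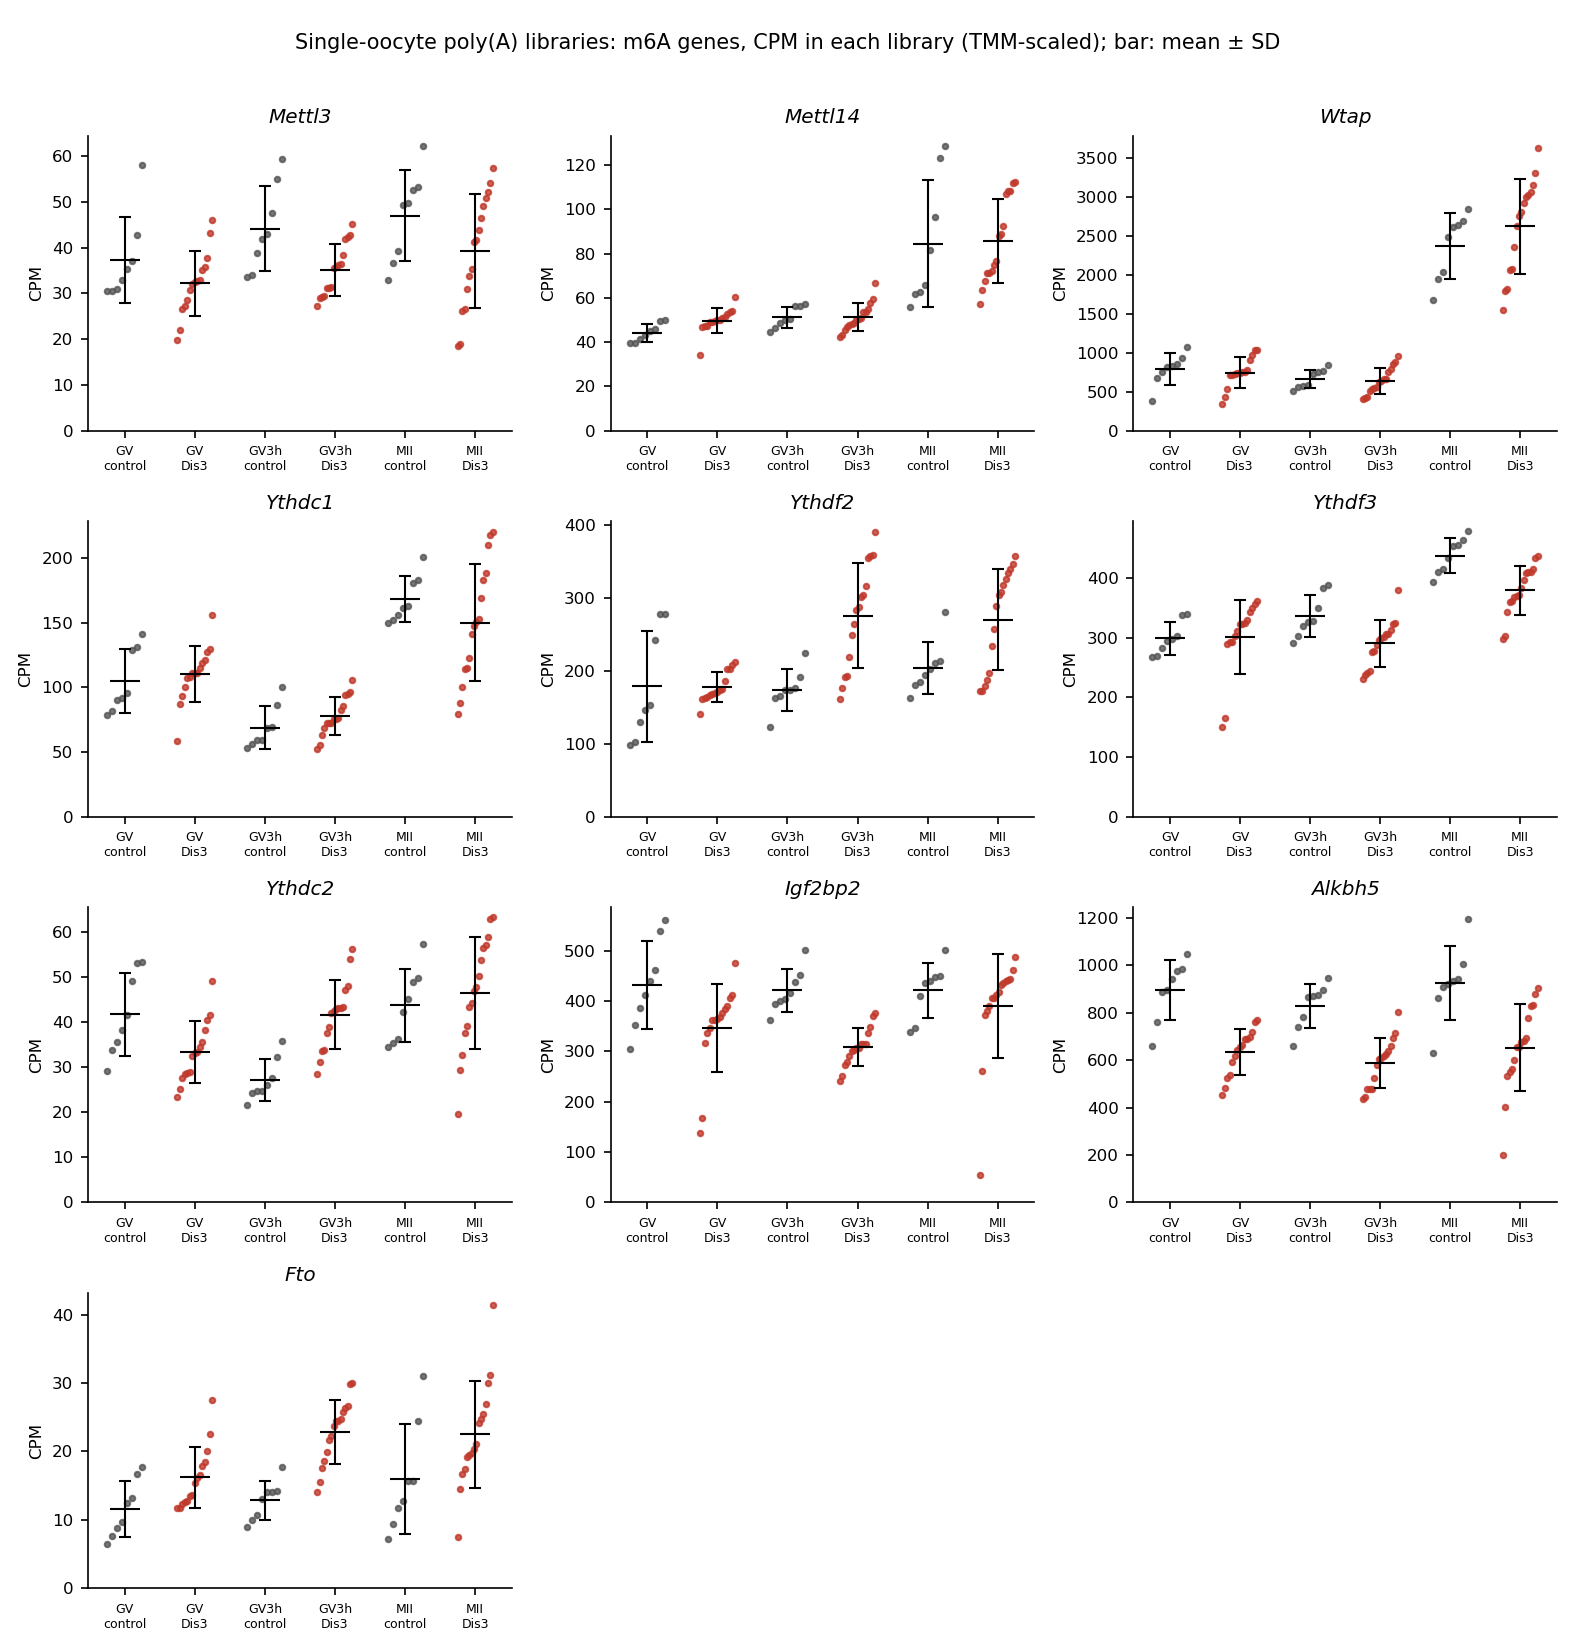
Level of each member in every poly(A) library, in CPM on linear axes from 0, by stage and genotype. Each point is 1 library, ordered by value within its group, and bars give the mean and SD. The Alkbh5 points of the Dis3 cKO lie below the control mean at the 3 stages, and Wtap is higher at MII in both genotypes.

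Fto, the other demethylase, was higher in Dis3 cKO oocytes after culture and in eggs, and in the p20 dcKO. Control GV oocytes held 6.54 to 17.7 CPM (median 11.1, mean 11.6 ± 4.12, n = 8), which is 50 to 152 counts per library, and Dis3 cKO oocytes 11.8 to 27.5 (median 15.4, mean 16.2 ± 4.50, n = 15). Although 15 of 15 knockout oocytes were above the control mean, the ranges overlapped and the log2 difference of 0.48 ± 0.21 did not pass (adjusted p = 0.0845; among title numbers 1 to 8 0.64, 0.0474). At GV3h the control range was 9.02 to 17.7 CPM (median 13.5, mean 12.9 ± 2.83) and that of the knockout 14.04 to 30.0 (median 24.1, mean 22.8 ± 4.70). There, 16 of 16 were above the control mean, with a log2 difference of 0.83 ± 0.20 (adjusted p = 0.000795; ERCC-scaled 0.82, 0.024). In MII eggs the spread was wider, 7.24 to 31.0 CPM in controls (median 14.3, mean 16.0 ± 8.01) and 7.51 to 41.4 in the knockouts (median 20.7, mean 22.5 ± 7.78). The MII difference of 0.49 ± 0.20 passed narrowly (adjusted p = 0.0422), with 14 of 16 eggs above the control mean. It was lost in 14 of the 71 fits that left out 1 library (adjusted p 0.00446 to 0.128), in a fit of the MII groups alone (0.172), without the filter on low counts (0.0988), among title numbers 1 to 8 (0.274) and without GV Dis3 cKO oocytes 6 and 8 (0.0679).

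In RiboMinus libraries Fto was 7.09 to 17.1 CPM in adult controls (median 11.6, mean 11.7 ± 2.95) and 7.74 to 19.7 in adult Dis3 cKO oocytes (median 16.1, mean 14.9 ± 4.17), a difference of 0.37 ± 0.20 that did not pass (adjusted p = 0.183) and was -0.17 with ERCC scaling. The adult Dis3 cKO split by title tag, with a mean of 18.0 CPM in the 4 libraries tagged AM1713 and 11.8 in those tagged AM1757. At p20 the control range of 11.96 to 20.6 CPM (median 16.8, mean 16.5 ± 3.16) did not overlap that of the dcKO, 20.8 to 34.9 (median 27.2, mean 26.7 ± 4.97). The log2 difference in the dcKO was 0.71 ± 0.16 (adjusted p = 0.00029; ERCC-scaled 0.62, 0.047), whereas the Dis3 cKO, at a mean of 18.6 ± 4.21 CPM, and the Exosc10 cKO, at 19.2 ± 4.43, differed from control by 0.18 ± 0.16 (adjusted p = 0.588) and 0.22 ± 0.16 (0.452). Directly compared, Fto was higher in the dcKO than in the Dis3 cKO by 0.53 ± 0.16 (adjusted p = 0.00554) and than in the Exosc10 cKO by 0.48 ± 0.16 (0.0102). The latter call was lost with ERCC scaling (0.39, adjusted p = 0.24), and both were lost with libraries summed per tag (0.143 and 0.172).

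The count ratio of the erasers within an oocyte does not depend on scaling. As log2 of Alkbh5 over Fto counts, it averaged 6.34 ± 0.51 in control and 5.32 ± 0.57 in Dis3 cKO GV oocytes, 6.03 ± 0.37 and 4.69 ± 0.50 at GV3h, and 5.98 ± 0.89 and 4.87 ± 0.72 at MII. The knockout mean was lower at each stage, with overlapping ranges: 5.43 to 7.0 against 4.04 to 6.03 at GV, 5.54 to 6.60 against 4.0 to 5.67 at GV3h, and 4.34 to 7.01 against 3.59 to 6.69 at MII. Adult RiboMinus libraries gave 6.16 ± 0.40 and 5.40 ± 0.51. At p20 the ratio was 5.68 ± 0.38 in controls, 5.44 ± 0.33 in the Dis3 cKO, 5.32 ± 0.28 in the Exosc10 cKO and 4.54 ± 0.45 in the dcKO, whose 8 oocytes (3.97 to 5.07) all lay below the 8 controls (5.11 to 6.25). These ratios are descriptions without a test.

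**Figure D3:**
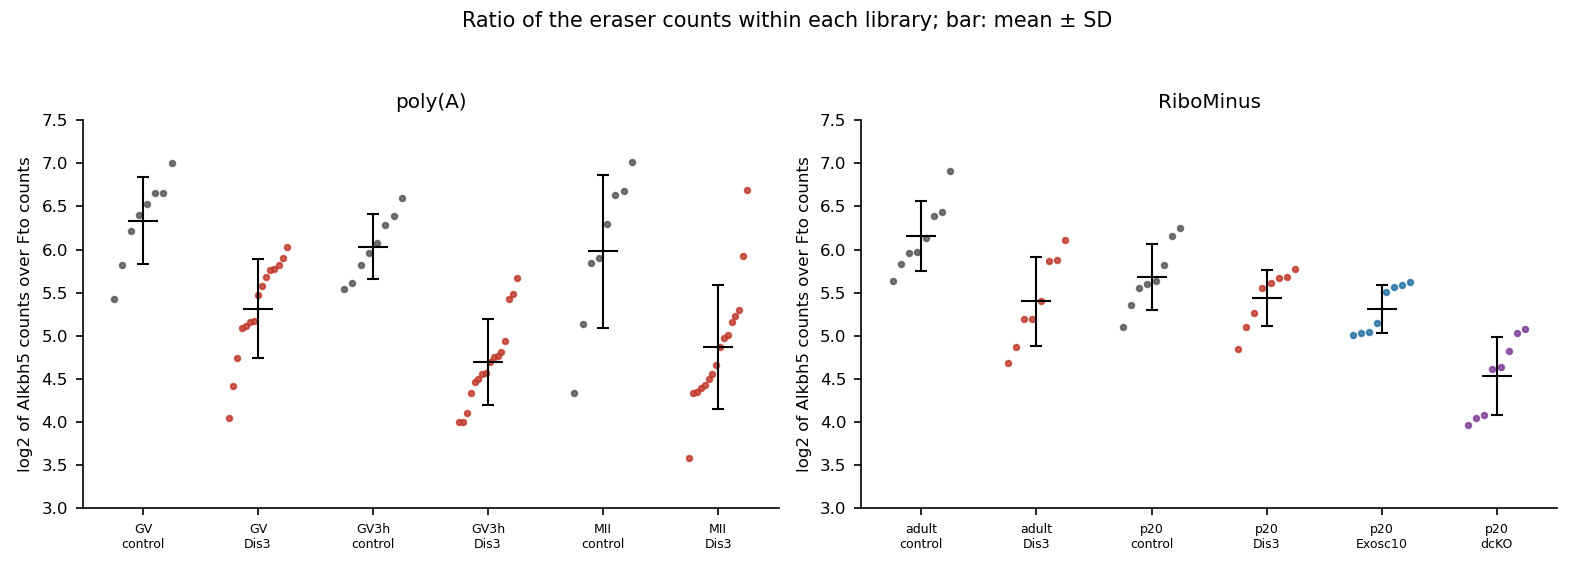
Log2 of the ratio of Alkbh5 to Fto counts in every RNA library by group, poly(A) and RiboMinus shown apart, with group mean and SD. The ratio is lower in Dis3 cKO than in control oocytes on average at each poly(A) stage, and the p20 dcKO oocytes (3.97 to 5.07) lie below all p20 controls.

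The nuclear reader Ythdc1, which couples the mark to splicing and polyadenylation choice in oocytes, was not called with Dis3 loss in poly(A) RNA. Its mean was 105 ± 24.7 CPM in control and 110.4 ± 21.8 in Dis3 cKO GV oocytes, 68.9 ± 16.3 and 77.7 ± 14.9 at GV3h, and 168 ± 18.0 and 149.9 ± 45.2 at MII. None of the differences (0.07, 0.17 and -0.17) passed, with adjusted p of 0.773, 0.349 and 0.354. In adult RiboMinus libraries it was higher, 112 to 151 CPM in controls (median 133, mean 132 ± 14.2) and 132 to 195 in the Dis3 cKO (median 153, mean 156 ± 21.1). In it, 7 of 8 oocytes were above the control mean, with a log2 difference of 0.26 ± 0.09 (adjusted p = 0.0289). The call was lost with libraries summed per title tag (0.332, where 0 of all genes were called) and without the filter on low counts (0.0673). That difference was -0.25 with ERCC scaling, where all genes stood at -0.52. It was also lost in 4 of 16 fits that left out 1 library (adult control AM1758_4 and AM1759_1, Dis3 cKO AM1713_2 and AM1713_3; adjusted p up to 0.0688). At p20 the controls held 71.7 to 131 CPM (median 119.7, mean 114 ± 19.6) and the Exosc10 cKO 113 to 193 (median 153, mean 152 ± 28.5), a difference of 0.42 ± 0.13 with 7 of 8 oocytes above the control mean (adjusted p = 0.0452). The Exosc10 call was lost in 12 of 32 fits without 1 library (adjusted p up to 0.107), with ERCC scaling (0.42, adjusted p = 0.42), with the replicate block (0.0690) and with libraries summed per tag (0.416). Neither the Dis3 cKO (126 ± 22.9 CPM, difference 0.16, adjusted p = 0.572) nor the dcKO (129 ± 25.2, 0.19, 0.223) passed at this age. The dcKO values split by tag without overlap, 92.8 to 122 CPM (mean 107) for tag 1 and 144 to 158 (mean 151) for tag 2. The tag means, though not all tag 1 values, lay on either side of the control mean.

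Ythdf2, the reader that sends marked mRNA to decay, was higher in Dis3 cKO oocytes after culture and in eggs but not at GV. GV values were 98.5 to 278 CPM in controls (median 149.8, mean 178 ± 75.4) and 141 to 211 in the knockouts (median 171, mean 177 ± 20.3), with a difference of -0.01 ± 0.15 (adjusted p = 0.984). At GV3h the controls held 122 to 223 CPM (median 174, mean 174 ± 28.4) and the Dis3 cKO 161 to 389.9 (median 285, mean 275 ± 71.7). There, 15 of 16 knockout oocytes were above the control mean, and the log2 difference was 0.66 ± 0.16 (adjusted p = 0.000432; ERCC-scaled 0.68, 0.037). MII eggs held 163 to 281 CPM in controls (median 198, mean 203 ± 35.4) and 172 to 357 in the Dis3 cKO (median 296, mean 269.9 ± 69.1), a difference of 0.41 ± 0.15 (adjusted p = 0.0268) shown by 11 of 16 eggs. The MII call was lost without MII control egg 1 or 7 (adjusted p up to 0.0611) and among title numbers 1 to 8 (0.287), without the filter on low counts (0.0680), with the replicate block (0.0576) and without GV Dis3 cKO oocytes 6 and 8 (0.0605). The difference between the GV3h and the GV effect, 0.67 ± 0.22, did not pass (adjusted p = 0.0827) and passed among title numbers 1 to 8 (0.88, 0.0334). No RiboMinus comparison with control called Ythdf2: the means were 93.0 ± 16.0 CPM in adult control and 96.8 ± 14.9 in adult Dis3 cKO oocytes, and at p20 134 ± 30.5 in control, 144 ± 21.9 in Dis3 cKO, 124 ± 28.4 in Exosc10 cKO and 155 ± 10.2 in dcKO oocytes.

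Ythdf3, the other cytoplasmic YTHDF reader among the members, was lower in the p20 dcKO. Its Dis3 cKO differences at GV3h and MII passed under some alternatives only. In poly(A) libraries the means were 299 ± 28.0 CPM in control and 301 ± 62.5 in Dis3 cKO GV oocytes, 336 ± 35.3 and 290.2 ± 39.2 at GV3h, and 438 ± 29.9 and 379 ± 41.1 at MII. The GV3h and MII differences were both -0.21 ± 0.09 and did not pass (adjusted p = 0.0688 and 0.0706), although 15 of 16 and 16 of 16 knockout libraries were below the control mean. Both passed in fits of the compared groups alone (0.0214 and 0.0227) and without GV Dis3 cKO oocytes 6 and 8 (-0.30, adjusted p = 0.00074, and -0.28, 0.00168), and the MII difference passed with DESeq2 (-0.24, 0.0281). The ERCC-scaled MII difference was 0.15 (adjusted p = 0.49). In p20 RiboMinus libraries the control range of 478 to 610.4 CPM (median 522, mean 530.1 ± 46.3) did not overlap the dcKO range of 294 to 460.0 (median 391, mean 382 ± 53.7). The difference was -0.46 ± 0.10 (adjusted p = 0.000186; ERCC-scaled -0.50, 0.045). The Dis3 cKO (574 ± 51.1) and the Exosc10 cKO (547 ± 114) differed from control by 0.12 ± 0.10 (adjusted p = 0.551) and 0.04 ± 0.10 (0.862). Within a library, the log2 ratio of Ythdf2 over Ythdf3 counts averaged -0.96 in control and -0.11 in Dis3 cKO oocytes at GV3h, -1.12 and -0.53 at MII, and -2.01 in p20 control against -1.29 in dcKO oocytes, a description with no test.

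Ythdc2, the helicase reader of meiotic germ cells, was the 1 member of 10 called for a difference in the response to Dis3 loss between GV3h and GV. GV oocytes held 29.2 to 53.3 CPM in controls (median 39.8, mean 41.7 ± 9.18) and 23.3 to 49.1 in the Dis3 cKO (median 33.0, mean 33.3 ± 6.89), a difference of -0.32 ± 0.14 that did not pass (adjusted p = 0.090; ERCC-scaled -0.60, 0.020) and was called without GV Dis3 cKO oocytes 6 and 8 (-0.41, adjusted p = 0.0249). At GV3h the order was the other way, 21.7 to 35.7 CPM in controls (median 25.4, mean 27.1 ± 4.63) and 28.5 to 56.2 in the Dis3 cKO (median 42.7, mean 41.6 ± 7.65). All 16 GV3h knockout oocytes were above the control mean, and the difference was 0.62 ± 0.14 (adjusted p = 0.000405; ERCC-scaled 0.58, 0.023). The interaction term, GV3h effect minus GV effect, was 0.94 ± 0.20 (adjusted p = 0.00544; ERCC-scaled 1.18, 0.018), 1 of 10 members called against 2.04% of all genes. Among title numbers 1 to 8 it was 0.80 (adjusted p = 0.0509). Without GV Dis3 cKO oocytes 6 and 8, Ythdf3 was called as well (-0.38, adjusted p = 0.0375). For the same contrast at MII 0 of 10 members passed by edgeR and 0 by DESeq2, 1 (Ythdc2) had an unadjusted p under 0.05, and 13.2% of all genes passed. At MII 4 members were called with ERCC scaling, where 30.1% of all genes were called (all-gene median 0.68): Wtap (0.88), Ythdf2 (1.10), Ythdc2 (0.97) and Igf2bp2 (0.91). In the MII contrast Ythdf3 was called without GV Dis3 cKO oocytes 6 and 8 (-0.35, adjusted p = 0.0199). MII means were 43.7 ± 8.15 CPM in control and 46.4 ± 12.5 in Dis3 cKO eggs (difference 0.09, adjusted p = 0.644).

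Adult RiboMinus oocytes held 46.5 to 69.1 CPM of Ythdc2 in controls (median 63.1, mean 59.2 ± 9.05) and 57.5 to 89.1 in the Dis3 cKO (median 75.9, mean 75.7 ± 10.6). Of the knockouts 7 of 8 were above the control mean, with a difference of 0.38 ± 0.11 (adjusted p = 0.0145). It was -0.17 with ERCC scaling and did not pass with libraries summed per title tag (0.241, where 0 of all genes were called). With TMM scaling the adult RiboMinus and the GV poly(A) values of Ythdc2 lay on opposite sides of control. With ERCC scaling both lay below it (-0.17 and -0.60). The difference between the assays was not tested. At p20 the means were 97.7 ± 19.7 CPM in control, 109 ± 21.2 in Dis3 cKO, 136 ± 26.2 in Exosc10 cKO and 90.0 ± 32.5 in dcKO oocytes. The Exosc10 difference of 0.48 ± 0.17, shown by 8 of 8 oocytes, did not pass (adjusted p = 0.0881) and passed in a fit of the compared groups alone (0.0287). The dcKO libraries split by their title tags, 52.2 to 70.4 CPM (mean 61.8) for tag 1 and 100.05 to 139 (mean 118) for tag 2, 4 libraries each, so the dcKO mean stands for no single level.

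Igf2bp2, the reader linked to stabilisation of its targets, was lower in GV3h Dis3 cKO oocytes and in the p20 dcKO. GV3h controls held 362 to 503 CPM (median 410.0, mean 421 ± 42.7) and the Dis3 cKO 242 to 376 (median 307, mean 308 ± 37.7). All 16 knockouts were below the control mean, with a difference of -0.45 ± 0.16 and an adjusted p of 0.0177 (ERCC-scaled -0.48, 0.1). GV values were 305 to 561 CPM in controls (median 426, mean 432 ± 87.8) and 137 to 475 in the Dis3 cKO (median 364, mean 347 ± 87.5). The GV difference of -0.32 ± 0.16 did not pass (adjusted p = 0.158), and it was called when MII Dis3 cKO egg 15, an egg with 55.1 CPM of Igf2bp2, was left out of the shared fit (0.0370). MII means were 422 ± 55.0 and 390.2 ± 102 (difference -0.11, adjusted p = 0.599). In adult RiboMinus libraries the means were 1067 ± 96.5 CPM in control and 1028 ± 229 in Dis3 cKO oocytes (difference -0.03, adjusted p = 0.854). At p20 the controls held 788 to 1118 CPM (median 928, mean 942 ± 100.3) and the dcKO 395 to 842 (median 597, mean 612 ± 146). This was the largest decrease among the members in the dcKO, -0.61 ± 0.12 (adjusted p = 8.16e-05; ERCC-scaled -0.62, 0.011), in 8 of 8 oocytes. Both tags of the dcKO were below the control mean, tag 1 at 395 to 525.8 (mean 489.9) and tag 2 at 669 to 842 (mean 734). The Dis3 cKO (995 ± 175) and the Exosc10 cKO (902 ± 153) did not pass, with differences of 0.08 (adjusted p = 0.772) and -0.07 (0.819).

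**Figure D4:**
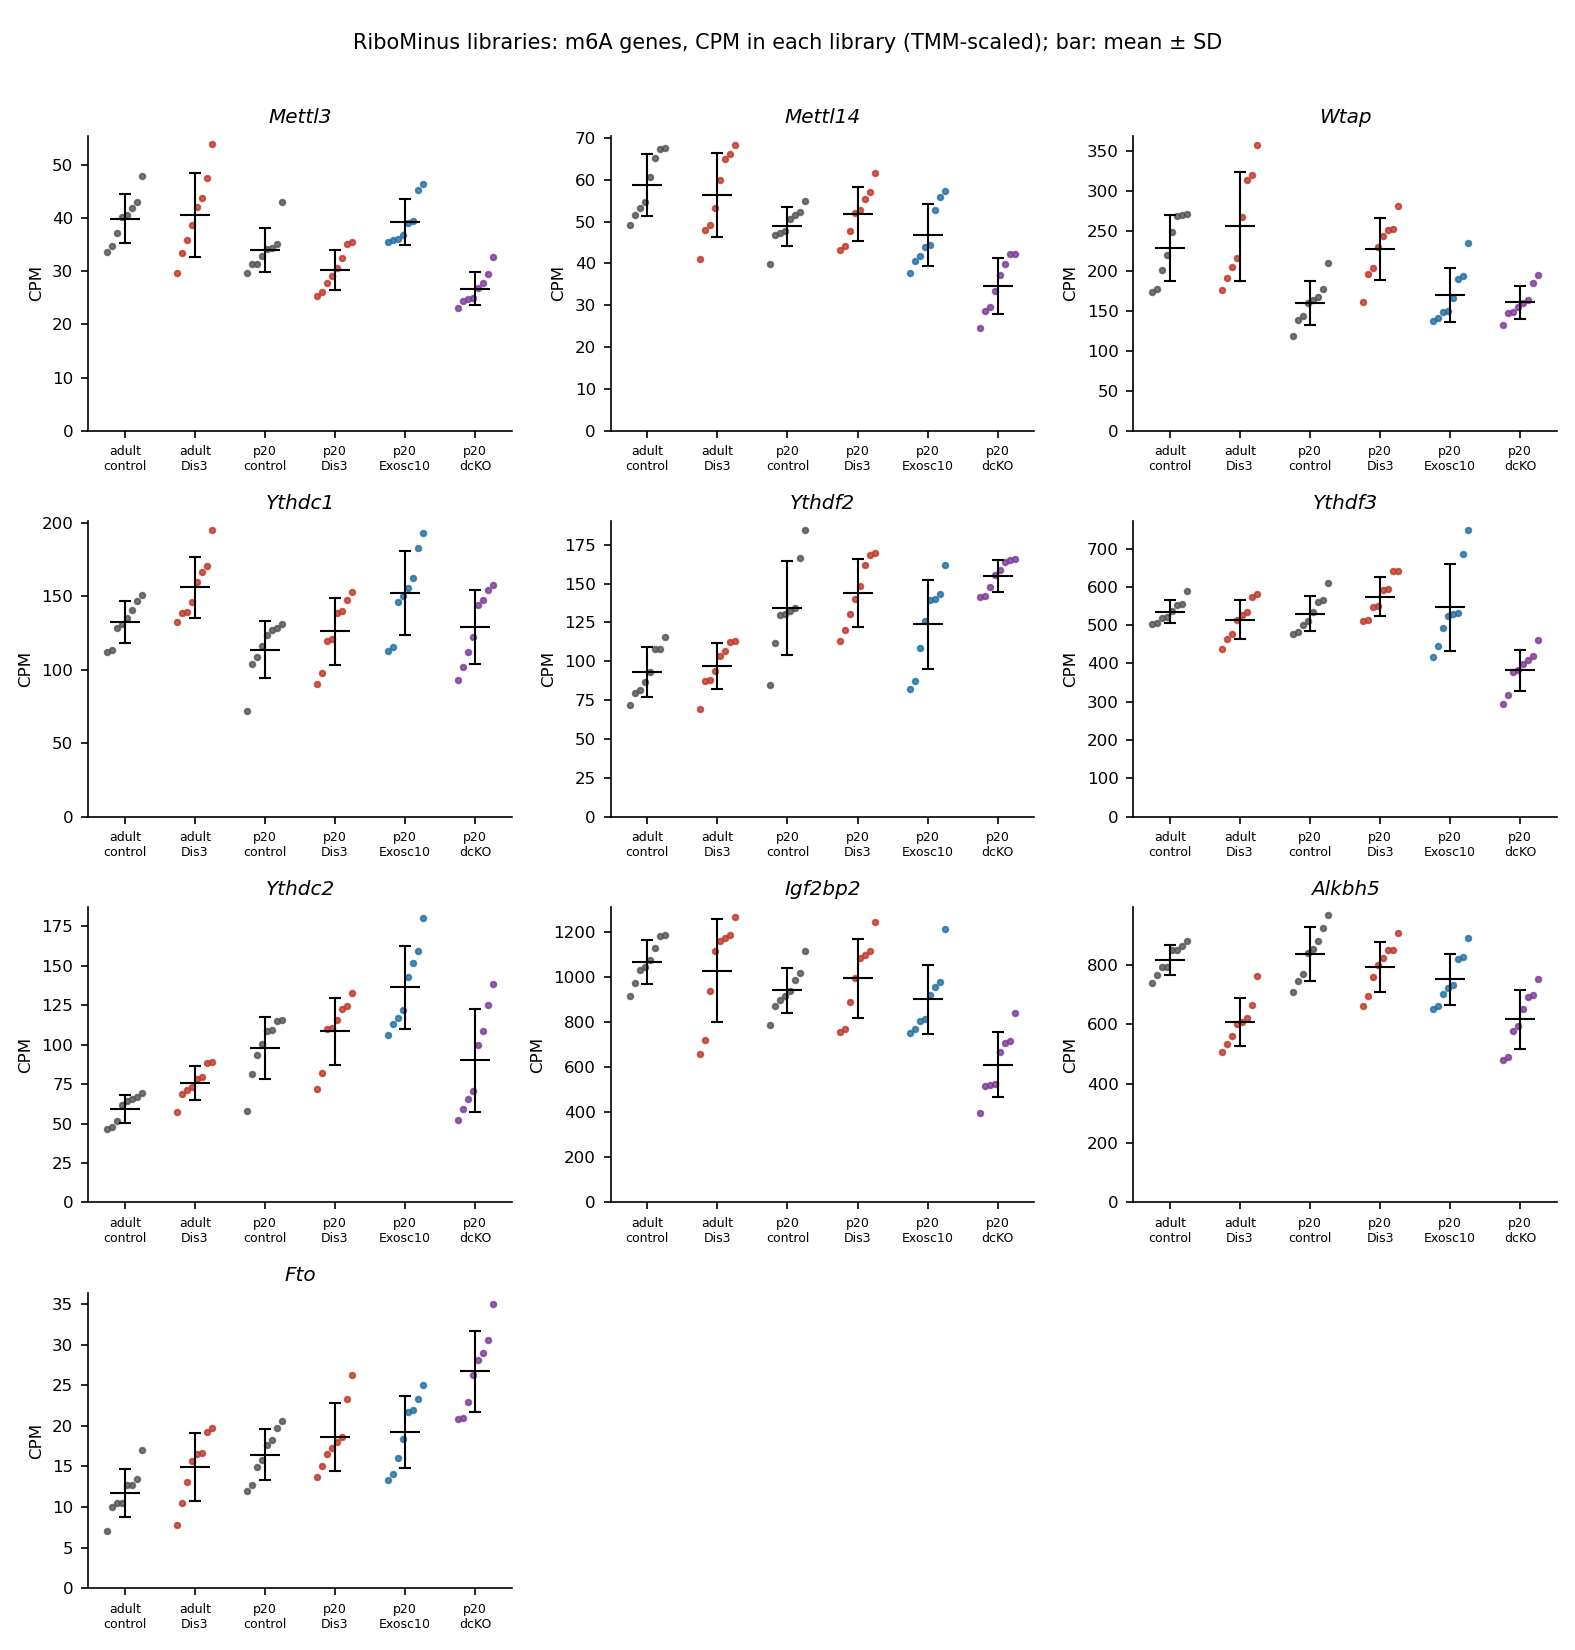
Level of each member in every RiboMinus library, in CPM on linear axes from 0, by age and genotype. Each point is 1 library, ordered by value within its group, and bars give the mean and SD. In the p20 dcKO, Ythdf3 (294 to 460.0) lies wholly below and Fto (20.8 to 34.9) wholly above the p20 controls.

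Mettl3 and Mettl14, the catalytic pair of the writer, were not called in any comparison of Dis3 cKO with control with TMM scaling and all libraries in the shared fits. Mettl3 means were 37.3 ± 9.38 CPM in control and 32.2 ± 7.05 in Dis3 cKO GV oocytes, 44.2 ± 9.32 and 35.2 ± 5.67 at GV3h, and 47.0 ± 9.86 and 39.2 ± 12.4 at MII. Its differences of -0.21 ± 0.15, -0.33 ± 0.15 and -0.26 ± 0.15 had adjusted p of 0.361, 0.0767 and 0.159. The GV3h difference of Mettl3 was called in a fit of the GV3h groups alone (-0.35, adjusted p = 0.0105) and without GV Dis3 cKO oocytes 6 and 8 (-0.42, 0.0164). Mettl14 means were 44.3 ± 4.09 and 49.8 ± 5.53 CPM at GV, 51.2 ± 4.76 and 51.3 ± 6.32 at GV3h, and 84.6 ± 28.6 and 85.8 ± 18.9 at MII, with differences of 0.17 ± 0.12, 0.00 ± 0.11 and 0.02 ± 0.11. In adult RiboMinus libraries Mettl3 was at 39.9 ± 4.64 CPM in control and 40.6 ± 7.91 in Dis3 cKO oocytes, and Mettl14 at 58.7 ± 7.45 and 56.4 ± 9.96. With ERCC scaling, where all genes stood at -0.52 in adults, Mettl3 (-0.51, adjusted p = 0.037), Mettl14 (-0.58, 0.027), Ythdf3 (-0.60, 0.0067) and Igf2bp2 (-0.60, 0.0099) were called lower there, along with Alkbh5, 5 of 10 members against 44.6% of all genes.

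Both genes were lower in the p20 dcKO. Mettl3 spanned 29.6 to 43.0 CPM in controls (median 33.5, mean 34.0 ± 4.10) and 23.0 to 32.6 in the dcKO (median 25.9, mean 26.7 ± 3.14), a difference of -0.33 ± 0.10 (adjusted p = 0.00467; ERCC-scaled -0.40, 0.061; summed per tag 0.0791). Mettl14 spanned 39.8 to 54.8 CPM in controls (median 49.2, mean 48.8 ± 4.61) and 24.5 to 42.2 in the dcKO (median 35.3, mean 34.7 ± 6.71), a difference of -0.48 ± 0.11 (adjusted p = 0.000511; ERCC-scaled -0.52, 0.037). All 8 dcKO oocytes lay below the control mean for both genes, and the ranges overlapped. The knockouts of 1 ribonuclease did not pass: Mettl3 was at 30.2 ± 3.85 CPM in the Dis3 cKO and 39.3 ± 4.29 in the Exosc10 cKO (adjusted p = 0.374 and 0.217), and Mettl14 at 51.8 ± 6.40 and 46.8 ± 7.48 (0.737 and 0.807).

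Wtap, the scaffold of the writer complex, was called in 1 knockout comparison. At p20 it spanned 118 to 210.0 CPM in controls (median 162, mean 159.8 ± 27.8) and 161 to 281 in the Dis3 cKO (median 237, mean 227 ± 38.4). All 8 were above the control mean, with a difference of 0.52 ± 0.12 (adjusted p = 0.00298). With ERCC scaling the difference was 0.23 (adjusted p = 0.36), and with libraries summed per title tag the call was lost (0.140). The Exosc10 cKO (170.1 ± 33.7) and the dcKO (161 ± 20.7) did not pass, at 0.09 (adjusted p = 0.729) and 0.02 (0.903). Adult means were 229 ± 41.3 CPM in control and 256 ± 68.3 in Dis3 cKO oocytes (difference 0.18, adjusted p = 0.369), where the Dis3 cKO split by tag into 176 to 216 (mean 197) for AM1713 and 267 to 357 (mean 314) for AM1757. In poly(A) libraries the control and Dis3 cKO means were 791 ± 202 and 745 ± 199 CPM at GV, 665 ± 119 and 638 ± 169.8 at GV3h, and 2365 ± 421 and 2620.1 ± 608 at MII. No difference passed (adjusted p 0.755, 0.789 and 0.463), and the MII difference was called with ERCC scaling (0.51, adjusted p = 0.028).

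The second question is how the members move with stage. In control MII eggs against GV oocytes, 4 of 10 members were called, against 58.5% of all genes. All 4 were higher, a direction taken by 22.7% of all genes, and 0 were lower (35.8%). The member median was 0.40 against -0.27 for all genes, each on the TMM scale. Wtap rose from 385 to 1078 CPM at GV (median 824) to 1679.6 to 2842 at MII (median 2547), a log2 difference of 1.58 ± 0.18 (adjusted p = 1.04e-11). Mettl14 went from 39.4 to 50.04 CPM (median 44.2) to 56.0 to 129 (median 73.9), by 0.93 ± 0.13 (adjusted p = 5.87e-09). Ythdc1 went from 78.7 to 141 CPM (median 93.5) to 149 to 200.4 (median 162), by 0.68 ± 0.16 (adjusted p = 0.000264), and Ythdf3 from 267 to 339.6 (median 295) to 393 to 478 (median 443), by 0.55 ± 0.11 (adjusted p = 1.51e-05). For each of these 4 genes the GV and MII ranges did not overlap, and the share of all genes with separate ranges was not counted. With ERCC scaling all 4 changed sign, to -0.27 for Wtap, -0.93 for Mettl14, -1.17 for Ythdc1 and -1.31 for Ythdf3, and 9 of the 10 members, all but Wtap, were then called lower, where 87.8% of all genes were called. Relative to the median of all genes, which ERCC scaling put at -2.12, Wtap stood 1.85 higher on either scale. Without GV Dis3 cKO oocytes 6 and 8, which enter the shared fit, Mettl3 (0.43, adjusted p = 0.0287) and Fto (0.57, 0.0228) were also called higher, as they were with DESeq2 (0.0404 and 0.0340). Wtap, Mettl14, Ythdc1 and Ythdf3 made up a larger share of the poly(A) RNA counts at MII.

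Dis3 cKO eggs against Dis3 cKO GV oocytes had 8 of 10 members called, against 63.3% of all genes. All 8 were higher (24.8% of all genes) and 0 lower (38.5%), with a median of 0.46 against -0.26. Wtap had the largest difference, 1.81 ± 0.13 (adjusted p = 3.09e-20), and its ranges of 346 to 1037 and 1544 to 3622 CPM did not overlap. The others were Mettl14 (0.79), Ythdf2 (0.60), Ythdc2 (0.48), Fto (0.47), Ythdc1 (0.44), Ythdf3 (0.33) and Mettl3 (0.28, adjusted p = 0.045). Among title numbers 1 to 8 the Mettl3, Ythdc2 and Fto calls were lost (adjusted p 0.149 to 0.571), and Igf2bp2 was called higher (0.34, adjusted p = 0.0425). The Mettl3 call was also lost with the replicate block (0.0635). ERCC scaling turned each of them negative, between -0.96 and -0.43, except Wtap, which stayed higher at 0.61 (adjusted p = 0.00034). Alkbh5 did not differ between MII and GV beyond its spread in either genotype with TMM, at 0.05 ± 0.15 in controls (adjusted p = 0.806) and 0.04 ± 0.11 in the Dis3 cKO (0.739), and fell with ERCC scaling by 1.83 and 1.10.

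Over 3 h of culture, 2 of 10 members were called in controls, against 2.71% of all genes, and both were readers that fell. Ythdc1 fell by 0.61 ± 0.17 (adjusted p = 0.0279) and Ythdc2 by 0.62 ± 0.16 (0.0208), with all 8 cultured oocytes below the GV mean for each. Leaving out 1 library ended the Ythdc1 call in 7 fits and the Ythdc2 call in 3 of 71 (adjusted p up to 0.0723 and 0.0708), and with ERCC scaling neither passed (-0.37 and -0.40, adjusted p = 0.52 and 0.49), nor did they without the filter on low counts (0.0688 and 0.0608). In Dis3 cKO oocytes 4 of 10 were called, against 17.3% of all genes: Ythdc1 fell by 0.51 ± 0.12 (adjusted p = 0.00144), whereas Ythdf2 was higher by 0.63 ± 0.13 (0.000232), Fto by 0.49 ± 0.16 (0.027) and Ythdc2 by 0.32 ± 0.12 (0.0459). With ERCC scaling the Ythdc1 fall was lost (-0.04, adjusted p = 0.85), and Mettl3 (0.60, 0.010), Mettl14 (0.51, 0.012) and Ythdf3 (0.40, 0.023) were called higher, where 37% of all genes were called. The Ythdc2 call was lost in 21 of 71 fits without 1 library (adjusted p up to 0.0813), with the replicate block (0.0617) and with oocytes 15 and 16 of GV3h summed (0.0583). Among title numbers 1 to 8 neither Ythdc2 (0.18, adjusted p = 0.546) nor Fto (0.48, 0.187) passed, while Wtap did (-0.63, 0.00696). Without GV Dis3 cKO oocytes 6 and 8, Ythdf3 was called lower (-0.17, adjusted p = 0.0485).

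In adult against p20 control RiboMinus libraries, 4 of 10 members were called, against 19.1% of 17267 genes. Wtap was higher in adults by 0.52 ± 0.13 (adjusted p = 0.00417), at 229 ± 41.3 against 159.8 ± 27.8 CPM. Ythdf2 (-0.53 ± 0.13, adjusted p = 0.00215), Ythdc2 (-0.72 ± 0.16, 0.000827) and Fto (-0.49 ± 0.17, 0.0386; without the filter on low counts 0.0805) were lower. With ERCC scaling the all-gene median was -1.69 and all 10 members were called lower in adults, Wtap at -1.15, where 86.1% of all genes were called. With libraries summed per title tag 0 of the 4 calls passed (adjusted p 0.102 to 0.365), where 237 of all genes were called. The Dis3 effect in adults minus that at p20 called 0 of 10 members with edgeR and 0 with DESeq2, with 1 (Alkbh5, above) at an unadjusted p under 0.05, against 9.32% of all genes called.

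**Figure D5:**
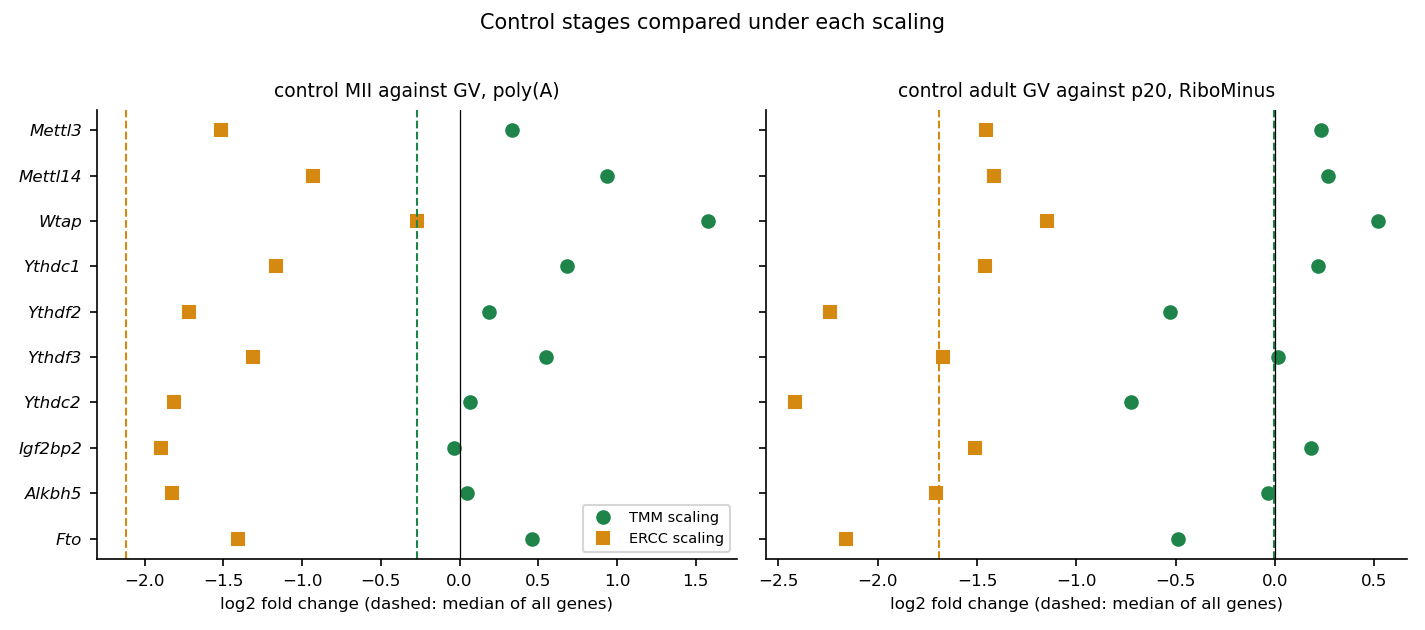
Log2 fold change of each member in control MII eggs against GV oocytes (left) and in adult GV against p20 control oocytes (right), with TMM scaling (circles) and ERCC scaling (squares). Dashed lines give the median of all genes under each scaling, -0.27 and -2.12 on the left. On the left every member lies above the line of its own scaling, and on the right Ythdf2, Ythdc2 and Fto lie farthest below it.

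The 4 genotypes at p20 allow the dcKO to be set against each knockout of 1 ribonuclease and against their sum. Against the Dis3 cKO, 6 of 10 members were called (51.5% of all genes): Mettl14 (-0.57), Wtap (-0.50), Ythdf3 (-0.58), Igf2bp2 (-0.70) and Alkbh5 were lower and Fto was higher. Against the Exosc10 cKO, 8 of 10 were called (49.2%): Mettl3 (-0.54), Mettl14 (-0.42), Ythdf3 (-0.50), Ythdc2 (-0.59), Igf2bp2 (-0.54) and Alkbh5 were lower, and Ythdf2 (0.34) and Fto were higher. With ERCC scaling the first comparison called 1 member (Fto; 36.9% of all genes) and the second 3 (Mettl3, Ythdf3 and Igf2bp2; 31.6%). With libraries summed per tag, Mettl14 (0.0883), Ythdf2 (0.0924), Ythdc2 (0.122), Alkbh5 and Fto were lost against the Exosc10 cKO, and Fto against the Dis3 cKO. The Ythdc2 mean of 136 CPM in the Exosc10 cKO stood against 61.8 in dcKO tag 1 and 118 in tag 2. The dcKO effect fell below the sum of the log2 effects of both knockouts for 6 of 10 members. Of all genes, 31.4% departed from the sum, 16.7% lower and 14.7% higher. These were Ythdf3 (-0.62 ± 0.14, adjusted p = 0.000926), Igf2bp2 (-0.63 ± 0.17, 0.00572), Wtap (-0.59 ± 0.16, 0.00649), Mettl14 (-0.51 ± 0.16, 0.0145), Ythdc2 (-0.74 ± 0.24, 0.0192) and Mettl3 (-0.38 ± 0.14, 0.0363; with the replicate block 0.0528, without the filter 0.136). For Alkbh5 (-0.20 ± 0.13, adjusted p = 0.234) and Fto (0.31 ± 0.22, 0.308) the departure from the sum did not pass. With ERCC scaling, or with libraries summed per title tag, 0 of the 6 passed. Of all genes 13.6% passed with ERCC scaling, and 1307 genes passed with libraries summed. The ERCC-scaled values of the 6 lay between -0.47 and -0.11. The comparisons of this paragraph share the dcKO libraries, and the departure from the sum also uses the p20 controls.

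Among the members called in the dcKO, both title tags stood on the same side of the control mean, at different distances. Tag 1 and tag 2 means were 29.0 and 40.4 CPM for Mettl14, 343 and 421 for Ythdf3, 489.9 and 734 for Igf2bp2, 566 and 668 for Alkbh5, 28.0 and 25.5 for Mettl3, and 25.3 and 28.1 for Fto, 4 libraries each. Tag 1 was the farther from control for Mettl14, Ythdf3, Igf2bp2 and Alkbh5, and tag 2 for Mettl3 and Fto. What the tags stand for is not given in the labels.

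Another 20 genes of the m6A pathway, among them the remaining subunits of the writer complex, other methyltransferases and other RNA-binding readers, gave the surroundings of the 10 members. In Dis3 cKO against control, 2 were called higher and 2 lower at GV (20% of the list, 21.9% of all genes), 8 and 5 at GV3h (65%, 38.6%), 6 and 5 at MII (55%, 42.1%), and 5 and 4 in adult RiboMinus libraries (45%, 28.1%). ERCC scaling changed this balance, given here with the shares of all genes called higher and lower. It became 1 higher and 4 lower at GV (7.27% and 13.3%), 5 and 2 at GV3h (17.5% and 10.6%), 10 and 0 at MII (37.6% and 4.31%), and 0 and 9 in adults (4.56% and 40.1%). In p20 libraries 0 of 20 were called in the Dis3 cKO by edgeR (3 at an unadjusted p under 0.05, 1 by DESeq2), against 7.37% of all genes. The Exosc10 cKO had 1 (Rbm15, higher), against 7.45%. The dcKO had 9 higher and 5 lower (70% of the list, 53.7% of all genes), or 5 and 3 with ERCC scaling (17.8% and 20.4% of all genes). Of the writer complex, Zc3h13 was called lower in GV, GV3h, MII, adult and dcKO comparisons, and Virma in all of these but GV. Rbm15 was called higher at GV3h, MII, adult, Exosc10 cKO and dcKO, and Cbll1 at GV3h (0.80) and in the dcKO (0.99). With ERCC scaling Zc3h13 was no longer called at MII (-0.04) or in the dcKO (-0.23), and Virma at GV3h (-0.35), at MII (0.06) or in the dcKO (-0.44). Rbm15b, an RNA-binding subunit of the complex, was called higher at GV, GV3h, MII, adult and dcKO, and not in the Exosc10 cKO. It went from 19.0 to 39.1 CPM at GV (1.04 ± 0.18, adjusted p = 7.25e-06) and from 51.6 to 196 CPM in the dcKO (1.93 ± 0.17, adjusted p = 4.59e-11), where its ranges did not overlap. Its adult call was lost with ERCC scaling (0.03, adjusted p = 0.93), as were those of Rbm15 at GV3h (0.36, 0.24), in adults (-0.20, 0.42) and in the Exosc10 cKO (0.58, 0.17). Fmr1, an RNA-binding protein that recognises marked mRNA, was higher at GV3h (16.8 to 43.8 CPM, 1.38 ± 0.25, adjusted p = 6.05e-06) and in the dcKO (76.0 to 154 CPM, 1.03 ± 0.17, 3.66e-06), without overlap in either. Igf2bp1 was higher at GV3h by 2.53 ± 0.54 (adjusted p = 0.000128) from a mean of 0.651 to 3.77 CPM. Ythdf1, a further YTHDF reader, was called higher with TMM scaling at GV3h and in the dcKO. It was called in no other comparison of a knockout with control. Meioc, whose protein is the meiotic partner of YTHDC2, was lower in Dis3 cKO MII eggs (17.0 to 7.47 CPM, -1.19 ± 0.35, adjusted p = 0.00386; ERCC-scaled -0.84, 0.055) and in the dcKO (13.4 to 3.28 CPM, -2.01 ± 0.44, 0.000206). In controls Meioc was higher at MII than at GV by 1.55 ± 0.42 (adjusted p = 0.00119), a difference of -0.33 with ERCC scaling. In that comparison 8 of the 20 were called higher and 3 lower (22.7% and 35.8% of all genes). With ERCC scaling they were 0 and 19 (0.334% and 87.5%).

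Wtap had the widest range of group means among the members in poly(A) libraries (2.04 log2 units) and Ythdc2 in RiboMinus libraries (1.19). Over the 12 group means, centred within each assay, the genes most like Wtap among 10973 were Ypel5 (Pearson r = 0.989), Tipin (0.989) and Dpy30 (0.984), and those most like Ythdc2 were Zbtb33 (0.880), Setd2 (0.866) and Zbtb26 (0.859). These coefficients describe 12 group means that share libraries and stages.

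The peak lists put chromatin beside 7 of the members, within 1 kb either side of the start, while Mettl14, Ythdf3 and Ythdc2 were not analysed here. At Igf2bp2, whose GC-rich promoter is printed above, an H3K27me3 peak was present in 3 of 3 adult control lists and 3 of 3 p20 control lists, in 1 of 3 adult Dis3 cKO lists and in 0 of 3 p20 dcKO lists. H3K27me3 is the mark of Polycomb repression, and across 17492 genes a list had such a peak at 18.3% to 30.0% of starts. The H3K27me3 lists held 244827 to 299716 peaks in the dcKO against 151535 to 159895 in p20 controls, and 224934 to 276316 in adult Dis3 cKO against 87394 to 202628 in adult controls. The part of list length in these counts was not tested. Igf2bp2 RNA was at 612 ± 146 CPM in the p20 dcKO and 942 ± 100.3 in p20 controls. In adults it was at 1028 ± 229 CPM in the Dis3 cKO and 1067 ± 96.5 in controls, a difference that did not pass. How many other genes had peaks in all control lists and fewer in the knockouts was not counted. Ythdc1 had an H3K27me3 peak in 1 of 3 dcKO lists, and no other member had one in any list. Pol II peaks lay at the start of Ythdf2 in 2 of 3 and of Mettl3 in 1 of 3 p20 control lists, and at Alkbh5 in 1 of 3 adult control lists, where lists covered 2.90% to 15.3% of starts. Wtap and Fto had a peak of neither kind in any list. Peaks were called by the authors list by list, with reads sampled to equal number, and no difference between groups was tested.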

How the data were processed

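Counts of reads per gene (71 poly(A) and 48 RiboMinus single-oocyte libraries) were deposited by the authors without normalization, with ERCC counts apart, and whether strand was used and the annotation release are not given in the sources used here. Peak lists with a signal per peak were deposited by the authors for 21 CUT&Tag libraries, and only the intervals were used. Per the submitters' processing notes, which name no role or order, cutadapt 2.5, FastQC 0.11.8, STAR 2.7.2a, SAMtools 1.9, HTSeq 0.9.1, R 3.5.1, DESeq2 1.24.0, SEACR and build mm10 were used.

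From the counts, log2 fold changes were fitted in edgeR 4.0.16 (R 4.3.3, TMM, filterByExpr by group, quasi-likelihood F test, 2-sided) with Benjamini-Hochberg adjustment over all genes tested and a threshold of 0.05. The poly(A) groups shared 1 fit (17389 genes), as did the adult RiboMinus pair (15334), the 4 p20 groups (15882) and, for adult against p20, all 6 RiboMinus groups (17267). Each SE was obtained from the fold change (log2) and the F statistic, as their ratio with F under the root. The fits were tested on simulated counts. The other normalizations (DESeq2 1.42.0, ERCC scaling), no filter on low counts, leaving out or summing libraries, the replicate block and the title tag as a block were alternatives. Peaks were matched to gene starts within 1 kb with pandas 2.3.3 and numpy 2.4.6 in Python 3.11.15. All 10 members are named. Of another 20 pathway genes, those that passed with a log2 difference of at least 1 are named. Zc3h13, Virma, Rbm15, Cbll1 and Ythdf1 were named after their values were seen. The members and lists were chosen with earlier results of these data known. IgG libraries and peak signal were not used here.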

Additional observations from a re-analysis of the deposited data

Results flagged for a closer look

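Of 90 groups of 8 libraries tested for a library far from the others, 4 had one, where chance gives about 1 in 20. Mettl3 was at 58.1 CPM in GV control oocyte 1 against 42.8 for the next, and at 43.0 CPM in p20 control library 2_1 against 35.1. Ythdf2 was at 281 CPM in MII control egg 4 against 213 for the next. Ythdc1 was lowest in p20 control library 2_4, at 71.7 CPM against 104.

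Effects that differed between conditions, by a test of the difference, were those of Dis3 loss on Ythdc2 at GV3h and at GV (0.94 on the log2 scale, adjusted p = 0.00544, edgeR) and the departures of the dcKO from the sum of the Dis3 and Exosc10 knockouts. The latter were -0.38 for Mettl3, -0.51 for Mettl14, -0.59 for Wtap, -0.62 for Ythdf3, -0.74 for Ythdc2 and -0.63 for Igf2bp2.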

How the results depend on the processing

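The number of members called stayed within 1.5 times its value in 18 of 18 comparisons with DESeq2, in 16 of 18 without the filter on low counts, in 11 of 12 with the compared groups alone, in 14 of 15 with a replicate block, in 6 of 6 with the title tag as a block, in 9 of 9 with GV3h Dis3 cKO oocytes 15 and 16 summed, in 6 of 9 without GV Dis3 cKO oocytes 6 and 8, in 7 of 9 among title numbers 1 to 8, in 3 of 9 with libraries summed per tag and in 7 of 18 with ERCC scaling. With ERCC scaling the counts (with TMM; share of all genes called with ERCC scaling) were 2 for GV (1; 20.6%), 9 for control MII against GV (4; 87.8%), 0 for control GV3h against GV (2; 0.679%), 4 for the MII interaction (0; 30.1%), 5 for adult (3; 44.6%), 0 for the p20 Dis3 cKO (1; 6.09%), 0 for the Exosc10 cKO (1; 2.29%), 1 for dcKO against Dis3 cKO (6; 36.9%), 3 for dcKO against Exosc10 cKO (8; 31.6%), 0 for dcKO minus the sum (6; 13.6%) and 10 for adult against p20 (4; 86.1%). Without the filter they were 1 for MII (3 with it, 8893 of all genes called) and 0 for control GV3h against GV (2 with it, 329 of all genes). Among title numbers 1 to 8 they were 2 for GV (3821 of all genes) and 1 for MII (5971). Without GV Dis3 cKO oocytes 6 and 8 they were 2 for GV (3945 of all genes), 2 for the GV3h interaction (1 with them, 574 of all genes) and 1 for the MII interaction (0 with them, 2366 of all genes). Summed per tag, with the number of all genes called in parentheses, they were 0 for adult (0), the p20 Dis3 cKO (286), the Exosc10 cKO (174), dcKO minus the sum (1307) and adult against p20 (237). For dcKO against Exosc10 cKO the count was 3 (5559). The lower number of samples limits these tests. The Exosc10 cKO count was 2 with the compared groups alone (1198 of all genes) and 0 with the replicate block (1106 of all genes, Ythdc1 at an adjusted p of 0.0690). With the block Ythdf2 at MII, Ythdc2 (GV3h against GV) and Mettl3 (MII against GV) in the Dis3 cKO, and Mettl3 in the departure from the sum no longer passed. Deviations of libraries with equal replicate numbers correlated at a mean r of 0.028 over 142 pairs in poly(A) data (25 above 0.1). Other pairs there had a mean of -0.002 over 1914 (242 above 0.1). At p20 the mean was 0.027 over 48 same-number pairs (12 above 0.1). Pairs of 1 tag with other numbers had -0.002 over 144 (31 above 0.1), and the remaining pairs -0.005 over 192 (52 above 0.1). These means do not settle whether libraries of equal number were paired.

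Directions that turned, of differences called under at least 1 of the scalings, did so with ERCC scaling. In control MII against GV, values became -1.51 for Mettl3, -0.93 for Mettl14, -0.27 for Wtap, -1.17 for Ythdc1, -1.72 for Ythdf2, -1.31 for Ythdf3, -1.81 for Ythdc2, -1.83 for Alkbh5 and -1.41 for Fto. In Dis3 cKO MII against GV they became -0.96 for Mettl3, -0.43 for Mettl14, -0.74 for Ythdc1, -0.62 for Ythdf2, -0.90 for Ythdf3, -0.84 for Ythdc2, -0.99 for Igf2bp2, -1.10 for Alkbh5 and -0.78 for Fto. Ythdf3 in Dis3 cKO GV3h against GV became 0.40. In adult Dis3 cKO against control, Mettl3 became -0.51, Ythdc1 -0.25 and Ythdc2 -0.17. In adult against p20 controls, Mettl3 became -1.45, Mettl14 -1.42, Wtap -1.15, Ythdc1 -1.46, Ythdf3 -1.67 and Igf2bp2 -1.51. The cause was not tested.

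Leaving out 1 library at a time (71 fits in poly(A) data, 16 adult and 32 p20 fits) gave 1 to 2 members called at GV, 5 to 7 at GV3h, 1 to 4 at MII, 4 to 5 for control MII against GV, 0 to 2 for control GV3h against GV, 7 to 8 and 3 to 4 for the same in the Dis3 cKO, 1 to 2 for the GV3h interaction and 0 for that at MII. In RiboMinus data it gave 2 to 3 in adults, 1 for the p20 Dis3 cKO, 0 to 1 for the Exosc10 cKO, 6 for the dcKO, 6 to 7 and 7 to 8 for the dcKO against the Dis3 cKO and the Exosc10 cKO, and 5 to 6 for dcKO minus the sum. The Alkbh5 calls held in each of these fits, as did 818 of 847 counts within 1.5 times. Depth limits Fto most, at 50 to 421 counts per poly(A) library.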
